A study of Mus musculus with 4 samples.

Results

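Imprinted growth regulators were followed in blood stem and progenitor cells of mice, on 4 Affymetrix arrays. The set holds 10 genes. Of these, 6 are expressed from the paternal allele (Ndn, Igf2, Dlk1, Peg3, Plagl1 and Mest) and 4 from the maternal allele (Grb10, Cdkn1c, H19 and Igf2r). The set was chosen by name with earlier results of these data known, as were the gene lists below. Counts set against shares of all genes are therefore descriptions. Of the 18194 genes tested on the arrays, 9 belong to it, with 27 probe sets between them, among 45101 in the table. A probe set is a group of short probes read out together for one transcript. Only probe sets annotated to 1 gene were used, and the main value of a gene is that of its probe set with the highest mean over the arrays. The probe set annotated to H19 also carries the name Mir675, so H19 has no value here.

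There were 2 arrays of the group WT and 2 of the group Alox15-/-, the latter named for a deletion of the gene for arachidonate 15-lipoxygenase. All came from C57BL/6 mice aged 8 weeks, and bone marrow cells were sorted for absence of lineage markers and for c-Kit and Sca-1, a gate shared by stem cells and early progenitors. The labels call the replicates biological without naming animals or pooling, and the p-values therefore reflect only how far these samples spread, and part of that spread may be technical. The single Alox15 probe set read 4.63 and 4.35 in WT, against 10.68 and 10.75 in the other group, which is opposite to what the genotype name would give. Whether the group names are exchanged, or the probe set reads a part of the transcript outside the deletion, was not tested. Every direction below is that of the labels, and an exchange would turn every sign and swap each share of lower with that of higher genes. Ly6a, the gene for Sca-1, had no single-gene value. Kit, the gene for c-Kit, read 10.63 and 10.48 in WT, against 10.34 and 10.23 in the arrays labelled Alox15-/-. Kit and the surface markers listed with it, Cd34, Flt3 and Ptprc, were above background, as defined below, on all 4 arrays. Of these 4 genes, 2 were lower and 0 higher without overlap between the groups, against 17.1% and 21.4% of all genes.

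An imprinted gene is transcribed mainly from the copy inherited from 1 parent, and DNA methylation laid down in the germ line at a control region tells the copies apart. That methylation can lie on either the silent or the expressed copy, depending on the locus. Many such genes set the balance of fetal growth. Igf2 is a fetal growth factor, Igf2r removes it from the cell surface, Grb10 is an adaptor that dampens insulin and IGF receptor signalling, and H19 is a non-coding RNA transcribed next to Igf2. Cdkn1c encodes p57, an inhibitor of cyclin-dependent kinases that holds blood stem cells out of the cell cycle, and Ndn encodes necdin, a growth suppressor of the MAGE family that binds E2F1 and p53. Peg3 and Plagl1 (also called Zac1) encode zinc finger proteins, Dlk1 a membrane protein with EGF repeats, and Mest a protein with a hydrolase fold.

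Ndn and Grb10 are the members whose main probe sets separated the groups, and their start sites are shown here because methylation acts on CpG dinucleotides, set in capitals. Each window holds 250 bases before and 50 after an annotated start, 5′ to 3′ on the gene's strand, from RefSeq on GRCm38.p6. The Ndn window is chr7:62348027-62348326 on the plus strand. The Grb10 windows are chr11:12037371-12037670 and chr11:12027922-12028221, both on the minus strand, so the first lies upstream.
Ndn start: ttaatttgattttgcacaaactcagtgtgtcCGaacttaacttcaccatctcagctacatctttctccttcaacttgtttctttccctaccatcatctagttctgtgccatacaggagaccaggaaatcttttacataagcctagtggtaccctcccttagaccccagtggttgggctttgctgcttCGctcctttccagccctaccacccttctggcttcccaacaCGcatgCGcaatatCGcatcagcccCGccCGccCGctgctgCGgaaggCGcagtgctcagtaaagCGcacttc
Grb10 upstream start: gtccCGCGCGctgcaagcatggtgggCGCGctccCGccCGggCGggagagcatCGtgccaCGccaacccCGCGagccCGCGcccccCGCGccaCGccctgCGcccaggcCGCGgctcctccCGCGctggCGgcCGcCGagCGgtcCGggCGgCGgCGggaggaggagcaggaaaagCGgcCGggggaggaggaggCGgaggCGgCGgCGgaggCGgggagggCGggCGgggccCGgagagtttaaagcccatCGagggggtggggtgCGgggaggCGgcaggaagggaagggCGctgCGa
Grb10 downstream start: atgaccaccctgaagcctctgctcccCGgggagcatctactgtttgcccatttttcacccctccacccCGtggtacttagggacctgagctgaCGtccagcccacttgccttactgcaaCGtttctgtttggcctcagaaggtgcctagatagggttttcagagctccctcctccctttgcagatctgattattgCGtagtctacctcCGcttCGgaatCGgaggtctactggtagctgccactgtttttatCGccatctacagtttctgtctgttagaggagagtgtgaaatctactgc
The upstream Grb10 window held 45 CpG dinucleotides, and 98.1% of the 32841 windows in the RefSeq table held fewer. The downstream Grb10 window held 9 and the Ndn window 11, against a median of 7 over all windows (lower quartile 3, upper quartile 20). Windows were found for 8 of the 10 members, 14 windows in all. The letters GGGGCCCC, a site bound by the Plagl1 protein that reads the same on both strands, were in 1 of the 14, that of Peg3, and in 1.08% of all windows.

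Expression is given as log2 values, on which a difference of 1 is a doubling, and each difference is the mean of the arrays labelled Alox15-/- minus that of WT. Over the 9 measured members, 0 passed limma's adjusted p threshold of 0.05, against 0.0055% of all genes, which is Alox15 alone. At an unadjusted limma p under 0.05 there were 2, Ndn and Grb10, both lower in the arrays labelled Alox15-/- and 0 higher, against 3.57% of all genes lower and 4.2% higher at that level. The groups did not overlap for these same 2 members and both were lower, against 17.1% of all genes lower and 38.5% in either direction without overlap. With 2 arrays in each group only large differences can pass the adjusted threshold. The paternally expressed members had a median difference of 0.09, with 5 of 6 above 0, and the 3 maternally expressed ones a median of -0.33, with 3 of 3 below 0. In all, 4 of 9 members were below 0, against 46.2% of all genes. The median over all genes tested was 0.02. The paternal median depends on how probe sets are counted. Over every probe set separately it was -0.25, where Ndn alone supplies 8 probe sets, all below 0. With the mean of all probe sets of each gene it was -0.10. Both medians also turn on single arrays. Without Alox15-/- replicate 2 the maternal median was -0.075 and Igf2r read 0.29. Without replicate 1 of that group the maternal median was -0.58. The paternal median ran from -0.0275 (without WT replicate 2) to 0.21 (without WT replicate 1). In that fit over single probe sets 0.00572% passed the adjusted threshold and 7.7% had an unadjusted limma p under 0.05.

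The highest of 27 control probe sets for Bacillus subtilis genes, which no mouse RNA should match, was taken as background and read 4.95 to 5.17 on the 4 arrays. The main probe sets of 7 members lay above it on all 4 arrays. The exceptions were Dlk1, at or below it throughout, and Peg3, above it on 1 array.

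**Figure D1:**
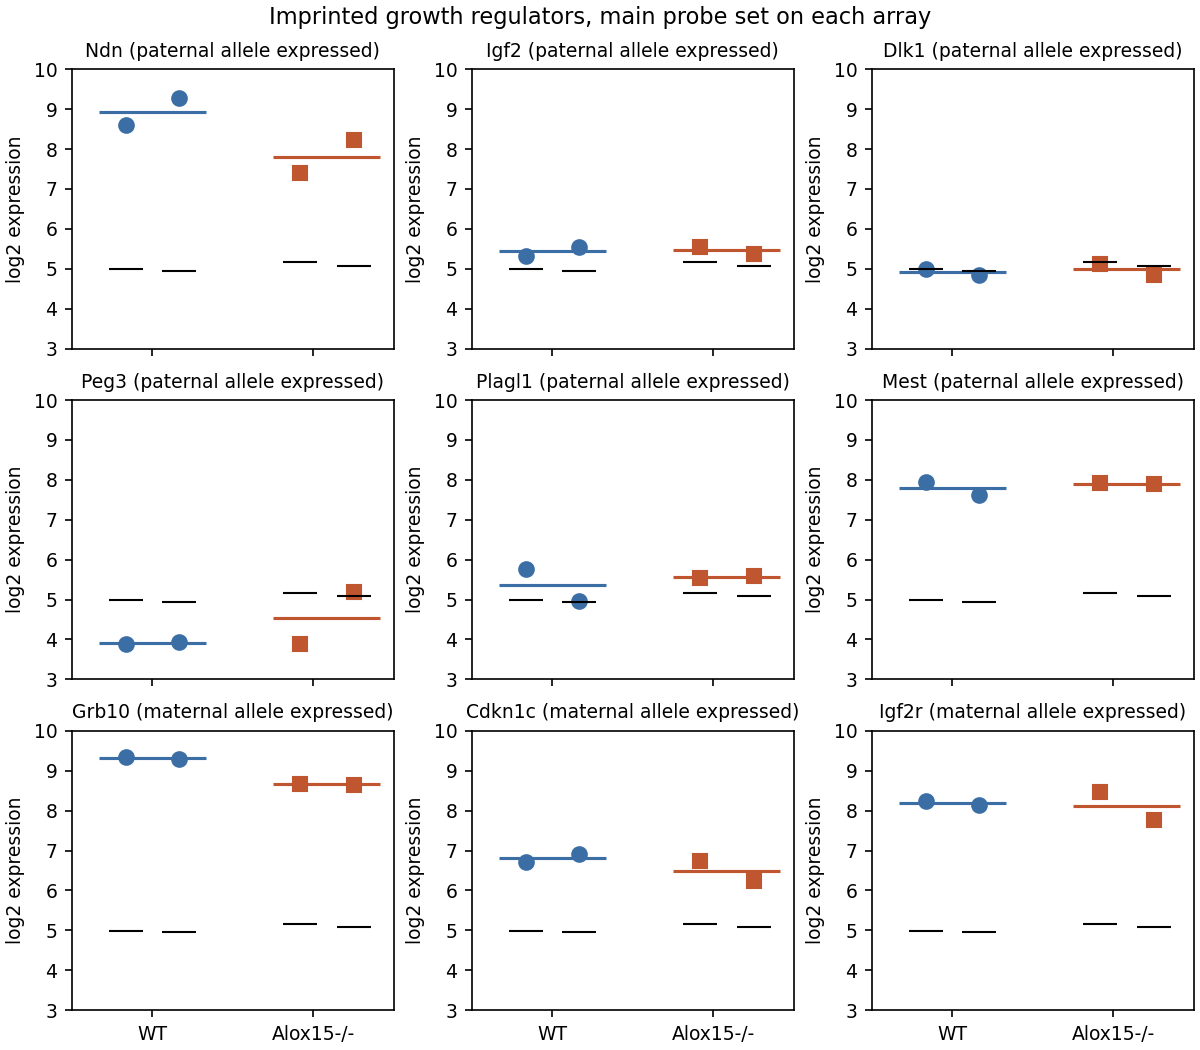
Log2 expression of the main probe set of each measured imprinted growth regulator on each array (circles WT, squares labelled Alox15-/-), with the group mean as a coloured line and background on each array as a black dash. Ndn and Grb10 are lower on both arrays labelled Alox15-/- than on either WT array, while Dlk1 sits on the background level.

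Among the paternally expressed members, Ndn read lower in the arrays labelled Alox15-/-. Its main probe set, 1437853_x_at, read 8.61 and 9.27 in WT, against 7.40 and 8.22 in the other group. Both WT arrays were above both of the others, but the gap between the nearest arrays was 0.40, smaller than the range of 0.66 within WT and 0.82 within the arrays labelled Alox15-/-. The difference was -1.13 ± 0.34 (SE, n = 2 each), or 2.19-fold higher in WT, with a 95% interval of 1.2 to 4.0. Its limma adjusted p was 0.595, at rank 601 of 18194 genes, so it did not pass the threshold. Without Alox15-/- replicate 1 the difference was -0.72.

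Ndn has 8 probe sets, all with a difference below 0, and 7 of them were lower without overlap, against 17.2% of all single-gene probe sets lower and 21.3% higher. They are annotated to the same gene, so they are not independent of each other. The 4 that lay above background on every array differed by -1.27 to -0.94. In each of these 4, replicate 2 was above replicate 1 in both groups. A further probe set, 1415923_at, above background on 3 arrays, differed by -1.02. The 3 that never rose above background differed by -0.25 to -0.03, so the mean over all probe sets, -0.76, includes probe sets below background. Probe sets whose name holds _x_ can share sequence with other transcripts, and 5 of the 8, including the main one, are of that kind. The probe set 1435382_at, which is not, read 7.14 and 7.91 in WT, against 6.09 and 7.08 in the arrays labelled Alox15-/-. Its groups were only 0.06 apart at the nearest arrays.

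**Figure D2:**
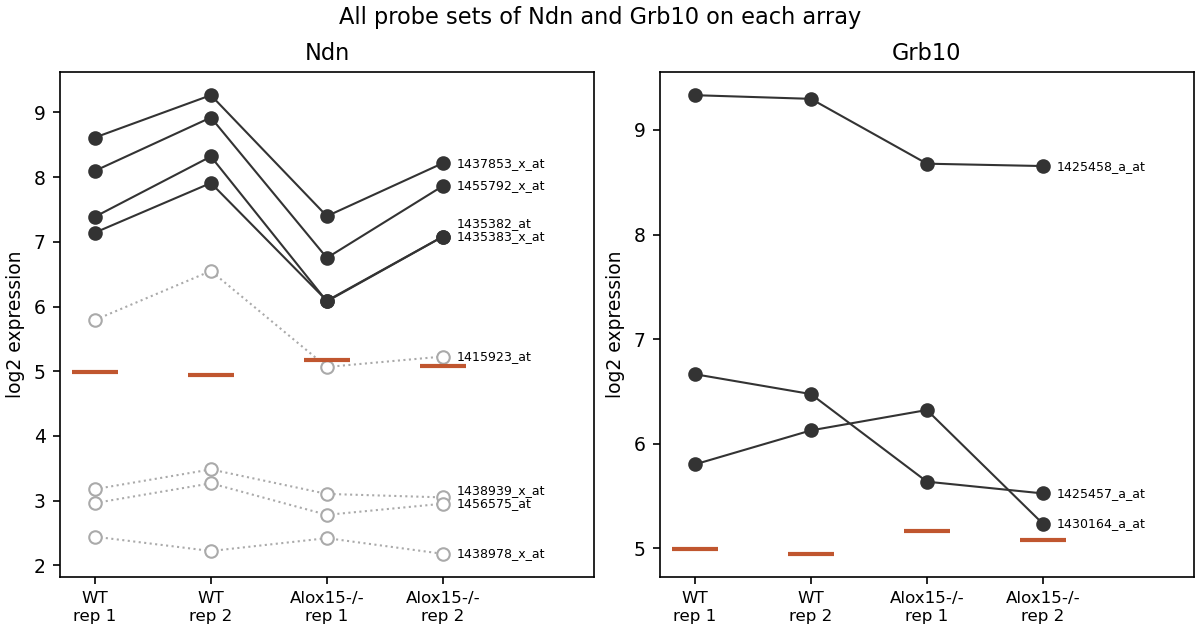
Log2 expression of all 8 Ndn probe sets and all 3 Grb10 probe sets on each array, with background on each array as an orange dash and filled points for probe sets above it throughout (lines join the arrays of 1 probe set and imply no order). The 4 bright Ndn probe sets trace the same profile over the arrays, and of the Grb10 probe sets 1425458_a_at and 1425457_a_at are lower on both arrays labelled Alox15-/-, whereas 1430164_a_at overlaps.

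Mest was measured well above background and did not separate the groups. It read 7.95 and 7.63 in WT, against 7.91 and 7.90 in the arrays labelled Alox15-/-, where both values lay within the WT range. The difference was 0.12, with a 95% interval of -0.28 to 0.52 and limma adjusted p = 0.891.

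Plagl1 gave different answers at its 3 probe sets. The main one, 1438588_at, read 5.77 and 4.97 in WT, against 5.55 and 5.58 in the arrays labelled Alox15-/-, so that the WT arrays lay on either side of the others, and the difference was 0.20 with a 95% interval of -0.50 to 0.90. The probe set 1426208_x_at read 6.23 and 4.55 in WT, against 2.50 and 1.99 in the other group, with no overlap. Only WT replicate 1 of these 4 values exceeded background, so the measured difference of -3.14 reduces to at least 1.2-fold lower in the arrays labelled Alox15-/- when the values of that group are raised to background and the WT mean is left as measured. In the limma fit over every probe set its adjusted p was 0.493. The third, 1450533_a_at, was below background on all 4 arrays and differed by -1.16.

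Igf2 was low. Its main probe set, 1448152_at, read 5.31 and 5.56 in WT, against 5.55 and 5.38 in the arrays labelled Alox15-/-, just above background on each array. The groups overlapped, and the difference was 0.03 with a 95% interval of -0.36 to 0.42. The second, 1415931_at, differed by -0.43 without overlap, but all 4 of its values, 3.02 to 3.54, were below background.

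Dlk1 and Peg3 were not clearly above background. Dlk1 read 4.995 and 4.85 in WT, against 5.13 and 4.84 in the arrays labelled Alox15-/- at 1442724_at, and 3.73 to 4.13 at 1449939_s_at. Peg3 at 1417356_at read 3.89 and 3.94 in WT, against 3.88 and 5.19 in the other group. Its difference of 0.62 therefore rests on Alox15-/- replicate 2, and without that array it was -0.03. The other 4 Peg3 probe sets were below background on every array and differed by -0.45 to 0.33.

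Among the maternally expressed members, Grb10 read lower in the arrays labelled Alox15-/-, with the replicates of each group close together. Its main probe set, 1425458_a_at, read 9.33 and 9.30 in WT, against 8.68 and 8.66 in the arrays labelled Alox15-/-. The nearest arrays of the groups were 0.62 apart, while the ranges within the groups were 0.035 in WT and 0.0225 in the others. The difference was -0.65 ± 0.13 (SE, n = 2 each), or 1.57-fold higher in WT, with a 95% interval of 1.26 to 1.95. Its limma adjusted p was 0.487, at rank 107 of 18194 genes, so it did not pass the threshold either. Leaving out any 1 array gave -0.67 to -0.63.

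The second Grb10 probe set, 1425457_a_at, read 6.67 and 6.48 in WT, against 5.64 and 5.53 in the arrays labelled Alox15-/-. Its groups lay 0.84 apart at the nearest arrays, and its difference was -0.99 ± 0.15 (SE, n = 2 each; limma adjusted p = 0.478 over every probe set). The third, 1430164_a_at, read 5.80 and 6.13 in WT, against 6.32 and 5.24 in the other group, with overlap and a difference of -0.19. All 3 were above background on every array. Which Grb10 transcripts each of them reads was not analysed here.

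Cdkn1c, the gene for p57, has 1 probe set and read 6.71 and 6.90 in WT, against 6.73 and 6.23 in the arrays labelled Alox15-/-. The groups overlapped by 0.02, since Alox15-/- replicate 1 lay between the WT arrays and only replicate 2 was below them. The difference was -0.33, with a 95% interval of -0.85 to 0.19 and limma adjusted p = 0.744. It was -0.08 without Alox15-/- replicate 2 and -0.58 without replicate 1 of that group. The interval includes 0 and both of these values, so these arrays do not settle whether the p57 transcript differed.

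Igf2r, the receptor that clears Igf2, read 8.25 and 8.13 in WT, against 8.48 and 7.77 in the arrays labelled Alox15-/- at its main probe set. The WT values lay between the other 2 arrays, and the difference was -0.07 with a 95% interval of -0.70 to 0.57. Its second probe set differed by -0.01. The antisense RNA of the locus, Airn, named for its position after its values were seen, was 7.20 and 7.44 in WT, against 7.14 and 7.10 in the other group, a difference of -0.20 (limma adjusted p = 0.782).

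**Figure D3:**
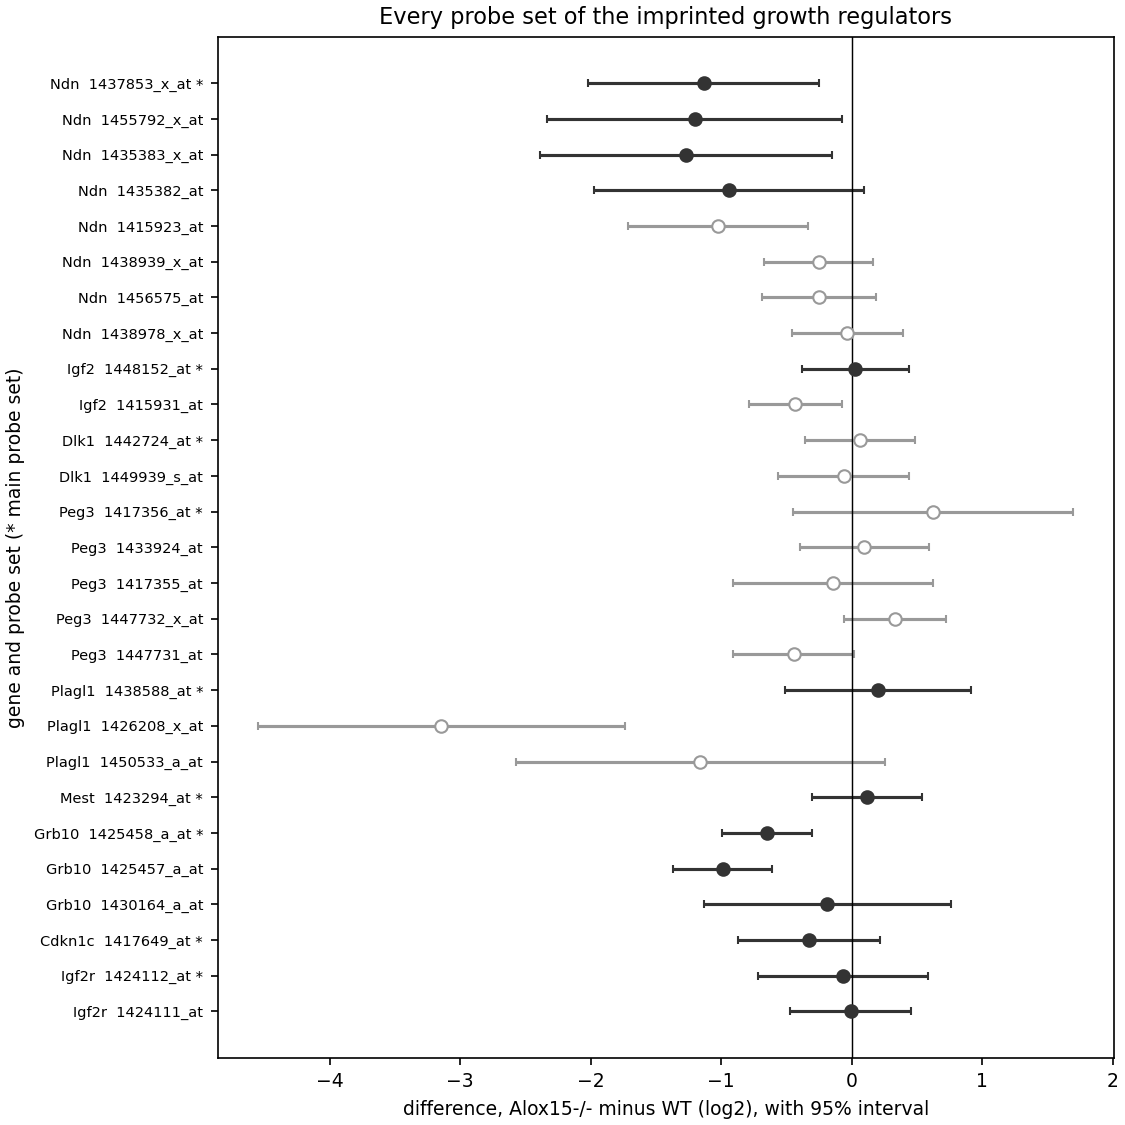
Difference between the arrays labelled Alox15-/- and WT (log2) with its limma 95% interval for each of the 27 probe sets of the 9 measured genes, an asterisk marking the main probe set and open points those not above background on all 4 arrays. Of the filled points, 3 of Ndn and 2 of Grb10 have intervals wholly below 0, and the large Plagl1 difference of -3.14 belongs to an open point.

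Genomic neighbours of Ndn and Grb10 were compared, as measured genes next to them in the RefSeq order of GRCm38.p6, 5 on each side. Ndn lies in an imprinted cluster on chromosome 7. Among its neighbours, the imprinted genes of the cluster are named for their place in it, after their values were seen. Peg12 differed by -0.63, Snrpn by -0.08, Mkrn3 by -0.09 and Magel2 by 0.34. Mkrn3 was above background on 0 arrays, Magel2 on 1, Peg12 on 2 and Snrpn on 4. Of the 10 neighbours 3 were lower without overlap and 1 higher, against 17.1% and 21.4% of all genes. Besides Peg12, the lower ones were B230209E15Rik and A230057D06Rik, with WT means of 2.04 and 2.92, below background. Beside Grb10 on chromosome 11, 2 of 10 neighbours were lower without overlap and 0 higher, against the same shares of all genes. The predicted gene LOC102631979, next to Grb10 and named after its values were seen, read 6.53 and 6.38 in WT, against 5.73 and 5.34 in the arrays labelled Alox15-/-, a difference of -0.92 (limma adjusted p = 0.487). Ikzf1 and Ddc, on the other side of Grb10 and also named after their values were seen, differed by -0.02 and 0.36, with Ddc below background. Grb10 shares chromosome 11 with Alox15, with 472 measured genes between them. On that chromosome 9.70% of 1443 genes had an unadjusted limma p under 0.05, against 7.59% elsewhere, and 18.6% were lower without overlap, against 17.0%. The part of this in the Grb10 difference was not tested.

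Of 42 other imprinted genes listed, 36 were measured and 0 passed the adjusted threshold. At unadjusted limma p under 0.05, 4 were lower and 0 higher, against 3.57% and 4.2% of all genes. Without overlap 8 of the 36 were lower and 5 higher, against 17.1% and 21.4% of all genes. Of the 36, 22 were above background on all arrays, as were 4 of the 8 lower without overlap. The median difference was -0.03 over all 36. It was -0.12 over 16 paternally expressed genes, of which 12 were below 0, and 0.10 over 20 maternally expressed genes, of which 7 were.

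The 4 lower genes were Peg10, Peg12, Rian and Meg3. Peg10, derived from a retrotransposon, read 4.59 and 5.03 in WT, against 4.01 and 4.03 in the arrays labelled Alox15-/- (difference -0.79). Peg12 read 5.12 and 5.39 in WT, against 4.64 and 4.61 in the other group (-0.63). For both of these the arrays labelled Alox15-/- lay below background, as did WT replicate 1 for Peg10. Meg3 and Rian are non-coding RNAs of the maternal chromosome at the locus that holds Dlk1.

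Meg3 read 6.65 and 7.56 in WT, against 6.45 and 5.89 in the arrays labelled Alox15-/-, a difference of -0.93 (limma adjusted p = 0.633). Its 10 other probe sets ran from -0.61 to 0.17, 5 of them below 0. Without overlap 2 of the 10 were lower and 2 higher, all above background on every array. Rian differed by -0.58 with 1 array above background, and its 3 other probe sets ran from -0.54 to 0.07. Sfmbt2, a Polycomb gene named after its values were seen, had the most negative difference of the list at -1.37 (limma adjusted p = 0.652). It read 6.69 and 7.07 in WT, against 4.64, below background, and 6.37 in the other group.

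**Figure D4:**
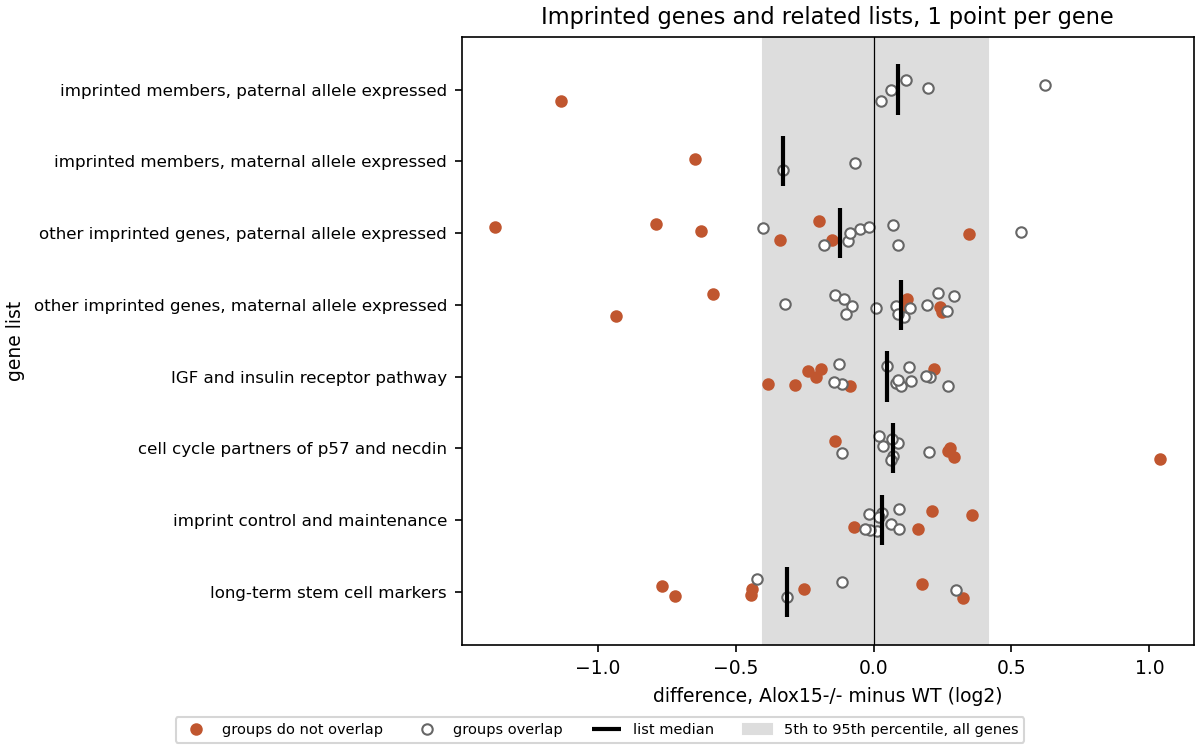
Difference between the arrays labelled Alox15-/- and WT (log2), 1 point per gene, for the imprinted genes and the related lists, with filled points where the groups do not overlap, a bar at each list's median and a grey band from the 5th to the 95th percentile of all genes (-0.40 to 0.41). Ndn at -1.13 and Grb10 at -0.65 lie below the band, as do the 4 other imprinted genes Meg3, Rian, Peg10 and Peg12 and also Sfmbt2. The imprinted genes Peg3 at 0.62 and Nnat at 0.53 lie above it.

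The IGF and insulin receptor pathway, on which Igf2 and Grb10 act, held no gene at an unadjusted limma p under 0.05, higher or lower, among 19 measured. Their median difference was 0.05, with 1 higher and 6 lower without overlap, against 21.4% and 17.1% of all genes. Igf1r, the main signalling receptor for IGF, read 10.99 and 10.87 in WT, against 10.66 and 10.64 in the arrays labelled Alox15-/- (difference -0.29, limma adjusted p = 0.677), and the insulin receptor Insr differed by -0.24. Both are given here for their role beside Grb10 and were chosen after their values were seen. Each is shown at its main probe set only, of 5 for Igf1r and 3 for Insr. In the whole list 10 genes were above 0 and 9 below.

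Among 13 measured cell cycle partners of p57 and necdin, 0 passed the adjusted threshold, 1 had an unadjusted limma p under 0.05, and 4 were higher and 1 lower without overlap, against the same shares, with a median of 0.07. The 1 gene was Cdkn1a, the p21 member of the inhibitor family of p57. It read 8.34 and 7.82 in WT, against 9.27 and 8.97 in the arrays labelled Alox15-/-, a difference of 1.04 (limma adjusted p = 0.503), with 0.33 at its other probe set. Cdkn1b, the third inhibitor of that family, differed by 0.03, and E2f1, a target of necdin, by 0.27, both named for their role after their values were seen. The 13 genes that set or keep imprints had a median of 0.03 and none at an unadjusted limma p under 0.05. Without overlap 3 were higher and 1 lower, against 21.4% and 17.1% of all genes. Dnmt1, the maintenance DNA methyltransferase, differed by 0.16 and its partner Uhrf1 by 0.21, both without overlap. Ctcf, which binds the control region of Igf2 and H19, differed by 0.01. These too were named for their role after their values were seen.

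Markers of long-term stem cells and of other cell types were listed to give their levels beside these values. In each list 0 genes passed the limma adjusted threshold. Of 11 measured long-term stem cell markers 5 were lower and 2 higher without overlap, against 17.1% and 21.4% of all genes, with a median of -0.31, and the log2 of their summed level was 13.24 in both WT arrays and 12.81 to 12.88 in the arrays labelled Alox15-/-. Hlf, a stem cell transcription factor, differed by -0.77, Fgd5 by -0.44 and Mllt3 by -0.44. The 2 higher without overlap were Slamf1 at 0.32 and Esam at 0.18, and 3 of the 11 were above 0. Hlf, on chromosome 11 like Alox15, was the brightest of the list in WT and so weighs most in the sum there. Mature neutrophil markers ran the other way, with a summed level of 9.57 to 10.59 in WT and 11.10 to 11.47 in the arrays labelled Alox15-/-, 6 of 10 higher and 1 lower without overlap, against the same 21.4% and 17.1%, and 1 below background on all arrays. S100a9 differed by 1.46, Ltf by 1.36, Mmp8, below background, by 0.59 and Itgam by -0.51.

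Stroma and endothelium markers, which matter because Igf2 and Dlk1 are made by such cells, had a summed level of 10.45 to 10.57 in WT and 10.63 to 10.67 in the other group, and 5 of 13, with Col1a2, Col3a1, Lum, Pdgfra and Cdh5, were at or below background on all arrays. Their median difference was 0.09, with 4 higher and 1 lower without overlap, against 21.4% and 17.1% of all genes. The brightest, Pdgfrb and Pecam1, differed by -0.03 and 0.09. Sparc differed by 1.32 at its main probe set. Its others differed by 0.80, above background on 2 arrays, and by -0.02, above it on all 4. Erythroblast markers summed to 10.66 to 10.72 in WT and 10.48 to 10.55 in the other group, with 2 of 8 below background. Their median difference was -0.04, with 5 below 0. Without overlap 2 were higher and 1 lower, against 21.4% and 17.1% of all genes. Tfrc, the brightest and so the heaviest in that sum, differed by -0.24, and Klf1 by 0.87. Lymphocyte markers summed to 10.73 to 10.75 in WT and 10.71 to 10.81 in the other group, with 3 of 9 below background. Their median difference was 0.12, with 7 above 0. Without overlap 4 were higher and 1 lower, against 21.4% and 17.1% of all genes. The brightest, which weigh most in that sum, were Lat at -0.36 and Nkg7 at 0.51. The ratio of the Gapdh control probe sets at the transcript's ends also separated the groups, with 2.37 and 2.39 in WT, against 2.14 and 2.17 in the arrays labelled Alox15-/- on the log2 scale. The part of any of these in the lower Ndn and Grb10 values was not tested, and in sorted bulk cells fewer cells of a type and less RNA per cell cannot be told apart.

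Profiles closest to Ndn and Cdkn1c were sought among 13655 genes whose mean over the 4 arrays was above the mean background, by the distance between log2 values centred on each gene's mean over the 4 arrays. With 4 arrays such closeness is a description. The 5 nearest to Ndn were Sytl4 (distance 0.15, difference -1.22), Sgtb (0.19, -1.24), Gria2 (0.23, -1.01), Dcbld2 (0.25, -0.90) and Mtss2 (0.27, -0.95), with 1 predicted gene passed over. Sgtb and Mtss2 were each above background on 3 arrays, and Alox15-/- replicate 1 was below it. Each shared the pattern of Ndn in which replicate 2 is above replicate 1 in both groups, which follows from how they were chosen. The other probe set of Sytl4 differed by -0.12 those of Dcbld2 by -0.20 and -0.15, and those of Gria2 by -1.20, below background, and -0.35, both lower without overlap. The 5 nearest to Cdkn1c were Med11, Rexo5, Zfp809, Slc25a27 and Sdhaf2, at distances of 0.044 to 0.085. In all of them Alox15-/- replicate 2 was the lowest array, which also follows from the choice. Other probe sets of Rexo5 differed by -0.43 to 0.13, those of Slc25a27 by -0.50 to -0.19 and that of Sdhaf2 by -0.34.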

How the data were processed

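Expression was measured in 4 samples, 2 labelled WT and 2 labelled Alox15-/-, grouped by their titles. The deposited table holds log2 values which, per the submitters' processing notes, came from Affymetrix Expression Console 1.1 with RMA, a method that corrects background, gives all arrays one distribution and combines the probes of a set. Per the labels' protocols a whole-transcript sense labelling kit was used, while the probe sets belong to a design for antisense targets; values are reported as deposited. The number of arrays limits the precision.

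Genes were named through the platform annotation (34958 probe sets with 1 symbol, 932 with several). RefSeq tables of GRCm38.p6 gave chromosomes, gene order and start windows; the deposited values name no build. R 4.3.3 with limma 3.58.1 gave two-sided moderated tests from lmFit then eBayes, without a block, over 18194 genes, 1 probe set each, or over every single-symbol probe set, with Benjamini-Hochberg adjustment. The code was tested on simulated data. The members and lists were chosen with earlier results of these data known. Up to 4 genes per list were named, those with the smallest unadjusted p under 0.05 and no overlap. Other names were chosen later, for a role, a position or a value. Genes outside the set are given at their main probe set only, unless other probe sets are mentioned. Same-numbered replicates were not paired by the labels, and the correlation over genes of their deviations was -0.02. Alternatives covered normalization, dim genes, variance moderation, array weights, probe set choice, a replicate block, left-out arrays and the threshold. Figures were drawn with matplotlib 3.10.9.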

Additional observations from a re-analysis of the deposited data

How the results depend on the processing

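The count of members past the adjusted threshold stayed at 0 under every alternative run, and Ndn and Grb10 stayed below 0 in all of them, Ndn from -1.54 to -0.72 with limma adjusted p of 0.316 to 0.952 and Grb10 from -0.67 to -0.61 with 0.280 to 0.952. Over all genes the count was 22 with a mean-dependent prior variance, 2 over every probe set separately and 0 to 0 without any 1 array, when the lone array is assumed to vary like the other group. With the replicate block, which rests on a shared number only, the count stayed at 1 and Ndn had limma adjusted p = 0.316 (Grb10 0.513), and no call changed. Members without overlap numbered 2, or 4 with the mean of all probe sets, and 5 to 6 without 1 array, where a lone array overlaps less easily. Of the 27 probe sets counted separately, 13 did not overlap. Of these, 12 were lower and 1, of Peg3, higher, against 17.2% and 21.3% of all single-gene probe sets. The 12 are not independent, since 7 are of Ndn and 2 of Grb10. Those of Igf2 and Peg3 were below background on every array. The paternal median was -0.51 without the lowest 50 percent of genes, which left fewer members, and -0.25 over every probe set. The sign turned for Igf2 (-0.20) and Plagl1 (-1.37) with the mean of all probe sets. It also turned without 1 array, where the ranges were -0.094 to 0.15 for Igf2 (also -0.06), -0.081 to 0.21 for Dlk1 (also -0.01), -0.044 to 0.28 for Mest, -0.20 to 0.60 for Plagl1, -0.42 to 0.29 for Igf2r and -0.034 to 1.28 for Peg3. The cause was not tested. Dlk1, Peg3 and most Plagl1 and Igf2 values are limited by signal over background.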
